A study of Mus musculus with 6 samples.

Results

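The bone morphogenetic protein (BMP) pathway was followed through 10 genes in C2C12 cells, an established mouse myoblast line. They are the ligand genes Bmp2, Bmp4 and Bmp7, the receptor gene Bmpr1a, the inhibitory SMAD genes Smad6 and Smad7, the antagonist gene Grem1, and the target genes Id1, Id2 and Id3, out of 23154 genes in the count tables. The genes were named as pathway members by symbol, with earlier results of these data known. Bmp4 was chosen by its strong fall in the same comparison, so its values are given as a description with no test. RNA-seq compared 3 libraries (N1 to N3, by replicate number) of a stable line carrying pINDUCER20b-HA-NUR77 with 3 (G1 to G3) of a stable line carrying pINDUCER20b-GFP. Both constructs are switched on by doxycycline, and both groups received 1 µg/mL doxycycline for 18 hours, from 24 hours after seeding, in medium with fetal calf serum. NUR77 is the orphan nuclear receptor encoded by Nr4a1, here tagged with HA. Each replicate was its own dish of 1 line per construct, so a difference between the 2 lines cannot be told apart from an effect of the construct, and p-values measure the spread between dishes. In such bulk RNA, fewer cells of a type and less RNA per cell cannot be told apart either.

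BMP ligands bind pairs of type I and type II receptor kinases, which phosphorylate SMAD1, SMAD5 and SMAD9. These join SMAD4 in the nucleus and switch on ID genes and the inhibitory SMADs, which feed back on the pathway. ID proteins lack a DNA-binding region, bind E proteins, and keep them from pairing with myogenic factors such as MyoD. In C2C12 cells added BMP2 is known to block myotube formation and to turn on osteoblast genes.

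The stretches before the transcription start are shown for the ligand gene that chose this set and for Smad6, whose promoter holds a SMAD element. The other inhibitory SMAD gene, Smad7, had no promoter entry and was not searched. Also shown are the ID gene with the larger fall and the ID gene that did not pass the test. They come from RefSeq on GRCm38.p6, are written 5′ to 3′ on the gene's own strand and cover Bmp4 (chr14:46390670-46390919, minus strand), Smad6 (chr9:64022056-64022309, minus strand), Id3 (chr4:136143572-136143821, plus strand) and Id2 (chr12:25096093-25096342, minus strand). Capitals mark a motif searched for on both strands: AAAGGTCA, the monomer element bound by NUR77, GGCGCC, a GC-rich SMAD element, and GTCTAGAC, the palindromic SMAD element. The stretches of Bmp4 and Id3 hold none of the 3, and that of Smad6 runs 4 bases past the start so that its element is whole.
Bmp4: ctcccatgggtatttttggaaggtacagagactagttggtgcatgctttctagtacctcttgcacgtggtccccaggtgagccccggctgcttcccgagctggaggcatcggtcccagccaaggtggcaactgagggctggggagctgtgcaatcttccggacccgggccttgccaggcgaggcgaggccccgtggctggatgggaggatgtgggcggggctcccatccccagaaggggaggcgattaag
Smad6: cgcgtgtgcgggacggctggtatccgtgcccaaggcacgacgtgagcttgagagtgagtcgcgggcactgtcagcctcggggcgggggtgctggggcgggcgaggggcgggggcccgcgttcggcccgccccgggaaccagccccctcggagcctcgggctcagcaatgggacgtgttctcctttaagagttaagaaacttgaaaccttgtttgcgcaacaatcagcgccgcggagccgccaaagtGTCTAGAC
Id3: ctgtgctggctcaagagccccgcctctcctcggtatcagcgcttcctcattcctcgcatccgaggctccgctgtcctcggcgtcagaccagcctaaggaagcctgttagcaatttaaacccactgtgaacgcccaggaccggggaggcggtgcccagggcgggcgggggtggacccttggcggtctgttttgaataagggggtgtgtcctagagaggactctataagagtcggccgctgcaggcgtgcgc
Id2: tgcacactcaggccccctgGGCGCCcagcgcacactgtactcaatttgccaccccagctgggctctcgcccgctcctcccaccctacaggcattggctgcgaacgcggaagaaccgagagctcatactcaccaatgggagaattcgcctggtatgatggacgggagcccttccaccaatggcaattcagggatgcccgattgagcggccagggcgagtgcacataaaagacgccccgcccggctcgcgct

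The promoter table matched 6 of the 10 genes, and those without an entry were Bmp2, Bmp7, Id1 and Smad7. Each window ran from 250 bases before to 50 after a start. AAAGGTCA was in 0 of the 6 and in 1.51% of all 32851 promoter windows. GTCTAGAC was in the Smad6 window, where it begins 4 bases before the start, and in 0.213% of all windows. GGCGCC was in the windows of Bmpr1a, Grem1 and Id2 and in 11.9% of all windows, beginning 198, 78 and 231 bases before the start. The 6 windows held 60.0% to 79.3% G and C, above the median of 52.7% over all windows. A match describes these letters only, and no binding was measured.

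Library totals ran from 13906096 to 22821446 counts, and the share of mitochondrial transcripts from 2.93% to 3.68%. Of the 12509 genes that passed the filter on low counts, 12.4% were called higher and 13.2% lower in HA-NUR77 at an adjusted p under 0.05, so a change as such was common. Mouse Nr4a1 stood at 22.5 ± 3.03 CPM (read counts scaled to a common library size) in HA-NUR77 and 20.4 ± 7.43 CPM in GFP (SD, n = 3; edgeR adjusted p = 0.698). These groups overlapped. Which species the NUR77 insert comes from is not stated, so this gene checks no label, and each direction here rests on the submitted group labels. The 8 markers of myoblasts and myotubes were all tested and 1 (Cdh15) was higher, or 5 higher and 1 lower with the replicate number as a block, among them Des (edgeR adjusted p = 0.0872, 0.000454 with the block). With the block 23.5% of all genes tested were called higher and 24.6% lower. The summed level of the 8 markers ran from 6839 to 8001 CPM in HA-NUR77 and from 4826 to 6581 CPM in GFP, with Des the most abundant. Among markers of other cells, the summed levels in HA-NUR77 and in GFP ran from 0.699 to 0.931 and 0.474 to 1.30 CPM for endothelial cells (Tek the most abundant) and from 2.37 to 3.46 and 1.48 to 2.71 CPM for macrophages (Csf1r). They ran from 0.0517 to 0.131 and 0 to 0.178 CPM for adipocytes (Fabp4, with Adipoq, Plin1, Lep and Cidec at 0), from 10.6 to 11.5 and 6.76 to 11.7 CPM for epithelia (Krt19, adjusted p = 0.0905 and 0.019 with the block, with Epcam and Krt18 at 0), and from 63.7 to 66.1 and 51.7 to 53.7 CPM for chondrocytes, almost all of it Sox9, with Acan and Col9a1 at 0. Sox9 was called higher (edgeR adjusted p = 0.0128) and the epithelial Cdh1 lower (adjusted p = 0.0112). Csf1r, at 1.35 ± 0.47 CPM in HA-NUR77 and 0.426 ± 0.287 in GFP (SD, n = 3), met the count minimum through HA-NUR77 alone and is given with no test. The part of these genes in the results below was not tested.

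Bmp4 was the 1 ligand gene of the 10 with reads, and it was low in every HA-NUR77 library. Bmp4 (ENSMUSG00000021835; GRCm38 chromosome 14, 46383520 to 46390669) encodes a secreted BMP dimer that is processed from a longer precursor. It had 58, 69 and 44 reads in N1, N2 and N3 and 290, 280 and 295 in G1, G2 and G3. In CPM these were 3.00, 3.01 and 3.16 against 17.2, 19.2 and 20.0. The HA-NUR77 libraries lay close together, far under the lowest GFP library. The fitted change was 6.15-fold lower (log2 fold change −2.62, 95% interval −2.88 to −2.35), and 40 of 12509 genes, Bmp4 included, fell at least as far. An opposite-strand gene, Gm15217, shares 89 bases of exon with Bmp4 and is not used here, and whether the counting used strand is not stated for these tables.

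Bmp2 (chromosome 2, 133552159 to 133562885) and Bmp7 (chromosome 2, 172868012 to 172940321), ligand genes of the same family, had 0 reads in all 6 libraries. A count of 0 allows up to 3 counts, or 0.131 to 0.216 CPM depending on the library, a limit for counting error only. No fold can be given for either. Thus 8 of the 10 genes had reads, and these 8 met the count minimum in all libraries of both groups.

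**Figure D1:**
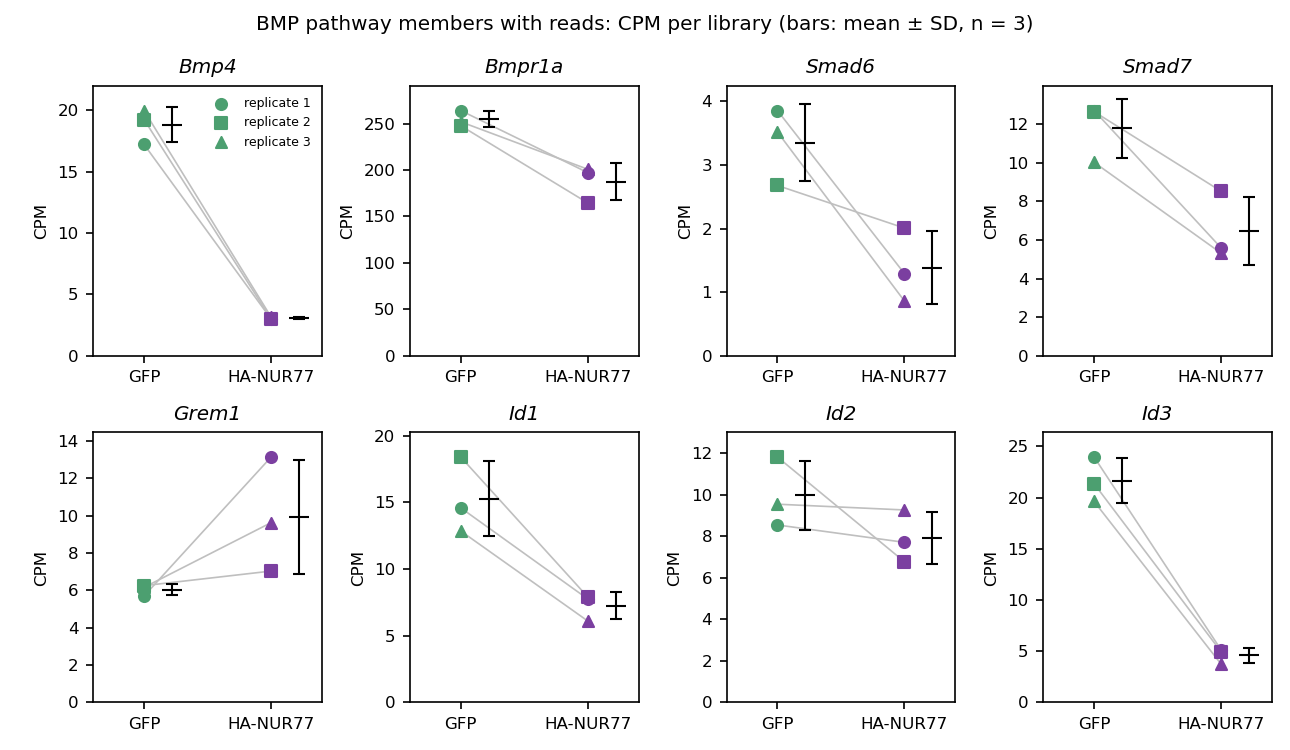
Scaled read counts (CPM, y axis from 0) of the 8 genes with reads in each library, GFP in green and HA-NUR77 in purple, with lines joining libraries of the same replicate number and bars for the mean ± SD of 3 libraries. Bmp4 sits near 3 CPM in all HA-NUR77 libraries against 17.2 to 20.0 CPM in GFP, Id2 is the 1 gene whose groups overlap, and Grem1 is the 1 gene that lies higher in HA-NUR77.

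Among the 7 genes tested other than Bmp4, 5 fell and 0 rose past the threshold: Bmpr1a, Smad6, Smad7, Id1 and Id3. Grem1 and Id2 did not pass. This is 71.4% lower, beside 13.2% of all genes, with a median log2 fold change of −0.85 beside 0.01 over all genes tested. The genes were named with earlier results of these data known, so these shares are a description. The 5 had no overlap between the groups, which 22.5% of all genes also showed in that direction, and Grem1 had none in the other direction, as did 23.0% of all genes. With the replicate number as a block, 5 fell and Grem1 rose, beside 24.6% of all genes lower and 23.5% higher. Leaving out N1 or N3 left 3 genes lower, and leaving out G1 left 2. Over all genes those fits gave 903, 1255 and 850 lower, against 1655 with every library.

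Bmpr1a, the type I receptor for BMP2 and BMP4, was the most abundant of the genes and fell modestly. Bmpr1a (ENSMUSG00000021796; chromosome 14, 34410734 to 34503341) stood at 197, 165 and 201 CPM in HA-NUR77 and 264, 248 and 252 CPM in GFP. Every HA-NUR77 library was under every GFP library. The change was 1.36-fold lower (log2 fold change −0.44, SE 0.09, 95% interval −0.65 to −0.23, edgeR adjusted p = 0.0129), with an adjusted p of 0.0508 without G1.

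The inhibitory SMADs were lower in HA-NUR77, at low counts for Smad6. SMAD6 interferes with BMP receptor signalling and SMAD7 with both BMP and TGF-beta receptors. Smad6 (chromosome 9, 63953076 to 64022059) had 25, 46 and 12 reads in HA-NUR77 and 65, 39 and 52 in GFP. In CPM, which allows for depth, these were 1.29, 2.01 and 0.86 against 3.86, 2.68 and 3.52, so the groups did not overlap, although the reads of 1 HA-NUR77 library exceeded those of G2. The change was 2.34-fold lower (95% interval 1.43 to 3.82, edgeR adjusted p = 0.0246). It lost the threshold without N1 (adjusted p = 0.0867), N3 (0.0502), G1 (0.0946) or G3 (0.0542). Its promoter is the one shown above with the GTCTAGAC element.

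Smad7 (chromosome 18, 75367529 to 75395935) stood at 5.58, 8.52 and 5.31 CPM in HA-NUR77 and 12.7, 12.6 and 10.0 CPM in GFP. N2 was the nearest to the GFP libraries, as it was for Smad6. The change was 1.80-fold lower (95% interval 1.30 to 2.50, edgeR adjusted p = 0.0219). It lost the threshold without N1 (adjusted p = 0.0794), N3 (0.0525), G1 (0.0836) or G2 (0.0615). The log2 ratio of Smad6 to Smad7 was −2.27 ± 0.305 in HA-NUR77 and −1.82 ± 0.375 in GFP (SD, n = 3), and the groups overlapped (two-sided exact permutation test, p = 0.3, 0.3 after adjustment over 4 such pairs, smallest possible 0.1).

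Grem1, which encodes the secreted antagonist gremlin that binds BMP2 and BMP4, lay higher in HA-NUR77 without passing the test. Grem1 (ENSMUSG00000074934; chromosome 2, 113746164 to 113758646) had 254, 161 and 134 reads in HA-NUR77 and 96, 91 and 91 in GFP, or 13.1, 7.03 and 9.62 against 5.69, 6.25 and 6.16 CPM. The GFP libraries were close together and the HA-NUR77 libraries were spread, with replicate 2 near the GFP level. The ratio was 1.64 (95% interval 1.14 to 2.37, edgeR adjusted p = 0.054). With the replicate block Grem1 rose (edgeR adjusted p = 0.00958 with the block), and it also passed without N2 (adjusted p = 0.0137). It passed as well with upper-quartile factors (0.0469), no filter on low counts (0.034) and DESeq2 (DESeq2 adjusted p = 0.027). In the remaining fits it did not pass, with an adjusted p of up to 0.16.

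Id3 and Id1, direct targets of the BMP SMADs, fell, and Id2 did not pass the test. Id3 (ENSMUSG00000007872; chromosome 4, 136143497 to 136145755) had 99, 113 and 52 reads in HA-NUR77 and 404, 311 and 290 in GFP. Its levels of 5.12, 4.93 and 3.73 CPM lay well under the 24.0, 21.4 and 19.6 CPM of GFP. The change was 4.66-fold lower (95% interval 3.70 to 5.87, edgeR adjusted p = 0.000141), the largest fall among the 10 genes other than Bmp4, and it held in all fits without 1 library (highest adjusted p = 0.00159). Over all genes, 73 of 12509 fell at least as far as Id3, itself included.

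Id1 (ENSMUSG00000042745; chromosome 2, 152736251 to 152737410) stood at 7.76, 7.90 and 6.10 CPM in HA-NUR77 and 14.6, 18.4 and 12.9 CPM in GFP. The lowest GFP library was above the highest HA-NUR77 library. The change was 2.09-fold lower (95% interval 1.60 to 2.73, edgeR adjusted p = 0.00467), and Id1 passed in every fit without 1 library (highest adjusted p = 0.0217).

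Id2 (ENSMUSG00000020644; chromosome 12, 25093799 to 25097140) stood at 7.70, 6.77 and 9.26 CPM in HA-NUR77 and 8.54, 11.8 and 9.54 CPM in GFP. The groups overlapped, since N3 exceeded G1. The log2 fold change was −0.34 with a 95% interval of −0.73 to 0.05 (edgeR adjusted p = 0.173, 0.0783 with the replicate block). The data therefore allow anything from a fall by 0.73 to a rise of 0.05 on the log2 scale.

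The balance among the ID transcripts was compared within each library, in a design too small for a test to reach 0.05. The log2 ratio of Id2 to Id3 was 0.79 ± 0.46 in HA-NUR77 and −1.13 ± 0.326 in GFP (SD, n = 3), a change of 1.91. The ratio of Id1 to Id3 changed by 1.18, from −0.51 ± 0.264 in GFP to 0.66 ± 0.0567. The ratio of Id1 to Id2 changed by −0.74, from 0.61 ± 0.173 to −0.12 ± 0.428. None of these 3 ratios overlapped between the groups, and each gave p = 0.1 in a two-sided exact permutation test, the smallest this design allows (0.133 after adjustment over 4 pairs).

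Per length of exon, the summed level of the ID transcripts was 29.5, 32.6 and 26.0 RPKM (CPM per kilobase of exon) in GFP and 12.7, 12.3 and 11.1 RPKM in HA-NUR77. Id3 held 45.4%, 36.5% and 42.2% of this sum in GFP and 22.5%, 22.3% and 18.7% in HA-NUR77. The Id2 share was 11.9%, 14.8% and 15.1% in GFP and 24.9%, 22.5% and 34.1% in HA-NUR77. The Id1 share overlapped between the groups, at 42.7% to 48.6% in GFP and 47.2% to 55.2% in HA-NUR77. The pool was thus smaller in all HA-NUR77 libraries, with a smaller share from Id3 and a larger share from Id2. The level of Id2 itself was 4.09 ± 0.687 RPKM in GFP and 3.25 ± 0.517 RPKM in HA-NUR77 (SD, n = 3).

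The RPKM level of Grem1 relative to that of Bmp4 was 0.179, 0.176 and 0.167 in GFP and 2.37, 1.26 and 1.65 in HA-NUR77. Grem1 transcripts were thus less abundant per length than Bmp4 transcripts in the GFP libraries and more abundant in the HA-NUR77 libraries. Since Bmp4 was chosen on its fall, this ratio is a description.

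**Figure D2:**
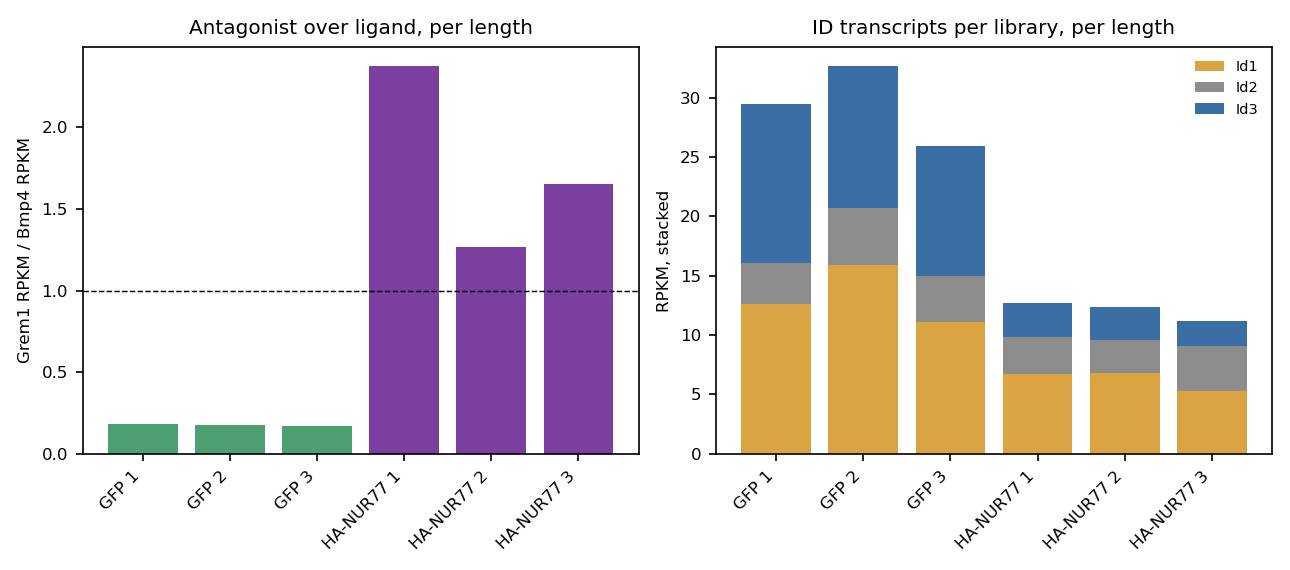
Left, RPKM of Grem1 divided by RPKM of Bmp4 in each library, with a dashed line at equal levels. Right, RPKM of Id1, Id2 and Id3 stacked for each library. The ratio is 0.167 to 0.179 in GFP and 1.26 to 2.37 in HA-NUR77, and the stacked ID level is 26.0 to 32.6 RPKM in GFP and 11.1 to 12.7 RPKM in HA-NUR77.

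The order of the levels per length also differed between the groups. In GFP it ran Bmpr1a (40.1 ± 1.34 RPKM, SD, n = 3), Id1 (13.2 ± 2.45), Id3 (12.1 ± 1.22), Bmp4 (8.36 ± 0.636), Id2 (4.09 ± 0.687), Smad7 (2.61 ± 0.338), Grem1 (1.45 ± 0.0717) and Smad6 (1.05 ± 0.189). Of the neighbours in that order, Id1 and Id3 were the 1 pair whose libraries overlapped. In HA-NUR77 it ran Bmpr1a (29.5 ± 3.14 RPKM), Id1 (6.25 ± 0.862), Id2 (3.25 ± 0.517), Id3 (2.57 ± 0.42), Grem1 (2.39 ± 0.738), Smad7 (1.43 ± 0.393), Bmp4 (1.36 ± 0.0395) and Smad6 (0.43 ± 0.181). There the neighbours from Id2 to Bmp4 overlapped each with the next.

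Among the other pathway genes that met the count minimum in both groups, falls outnumbered rises, though not in every class. Secreted antagonists and modulators gave 5 lower and 0 higher of 9, and intracellular brakes 3 lower and 0 higher of 4. Receptors and co-receptors gave 2 lower and 1 higher of 8, but 3 lower and 3 higher with the replicate block. Targets other than the ID genes gave 1 lower and 1 higher of 4. The ligands held 1 such gene, Gdf5, too few to describe a class. Besides the 10 genes, 54 listed pathway genes were in the tables and 34 passed the filter, of which 29 met the count minimum (0.629 CPM) in all libraries of both groups. Of these 29, 13 fell, 2 rose and 14 did not pass. This is 44.8% lower and 6.90% higher, beside 13.0% and 12.3% of the 11775 genes of that kind, with a median log2 fold change of −0.33 beside 0.01. The lists too were chosen with earlier results of these data known, so these shares are a description. With the replicate block 15 fell and 5 rose, beside 24.6% and 23.5% of all genes. The other 5 met the minimum through 1 group alone, Bmp8a, Gdf6, Bmpr1b and Dlx2 through GFP and Nog through HA-NUR77. Their values are given with no test and are in none of the counts of this section. Of the 13 falls, 7 were called in every fit without 1 library. Together with the 7 genes tested of the 10, 18 of 36 fell and 2 rose. Falls among these 36 numbered 10 without N1, 10 without G1 and 12 without N3, and rises numbered 2 to 4 in fits without 1 library (4 without N2, 3 without N3 or G3).

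Among the other ligand genes, Gdf5 fell and Gdf6 had a lower level in HA-NUR77. Both encode growth and differentiation factors of joints and skeleton that signal through BMP receptors. Gdf6 stood at 1.24, 0.349 and 1.87 CPM in HA-NUR77 against 5.04, 5.01 and 4.60 CPM in the GFP libraries. Gdf5 stood at 1.14, 1.27 and 3.09 against 3.86, 7.90 and 14.3 CPM (log2 fold change −2.31, SE 0.55, edgeR adjusted p = 0.0223), and was at 0.0791 or less in fits without 1 library, losing the threshold without N1 or N2. Both groups of Gdf5 were spread, and replicate 3 was the highest in each. Bmp8a had 35 reads against 68. Bmp6 had 0 reads against 5, Bmp5 had 5 against 1 and Bmp8b 9 against 1, too few to test.

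Among receptors and co-receptors other than Bmpr1a, 2 of the 8 that met the minimum in both groups fell and 1 rose. Bmpr1b, a second type I receptor, averaged 0.427 ± 0.143 CPM in HA-NUR77 against 1.94 ± 0.241 CPM in GFP (SD, n = 3), with no test. Bmpr2, the BMP type II receptor, went from 266 ± 33.1 to 158 ± 28.6 CPM (1.69-fold lower, edgeR adjusted p = 0.0121). Acvr1, a type I receptor, fell 1.29-fold (adjusted p = 0.0395), a call lost without N1, N3, G1 or G2. The riser was Rgmb, a membrane-anchored BMP co-receptor, at 97.5 ± 10.6 CPM against 54.3 ± 5.34 (1.79-fold higher, adjusted p = 0.00193). Its relatives Rgma (log2 fold change 0.21, adjusted p = 0.0511) and Hfe2, hemojuvelin (0.36, adjusted p = 0.193), passed with the replicate block (adjusted p = 0.0092 and 0.000344) and without N2 (0.0432) and G3 (0.0246), respectively. The type II receptor gene Acvr2a passed with the block (−0.44, adjusted p = 0.0825, 0.000552 with the block).

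Of the signal-carrying SMADs, Smad5 fell 1.27-fold (edgeR adjusted p = 0.0197), a call lost without N1, N3, G1 or G2. Smad1 did not pass (log2 fold change −0.21, adjusted p = 0.17), although it did without G3 (0.0364). Smad4, the shared partner, stood at −0.19 (adjusted p = 0.182, 0.0106 with the replicate block). Smad9 had 27 reads against 31 and was not tested.

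Besides Smad6 and Smad7, 3 of 4 intracellular brakes fell. Skil and Ski, nuclear co-repressors that bind SMADs, fell 1.47-fold (edgeR adjusted p = 0.0048) and 1.36-fold (0.0197). Smurf2, a ubiquitin ligase of SMADs and receptors, fell 1.26-fold (0.0191). Its relative Smurf1 did not pass (log2 fold change 0.14, adjusted p = 0.248). The call of Ski was lost without N1, G1 or G2, and that of Smurf2 without N1, N3 or G1.

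Among secreted antagonists and modulators other than Grem1, 5 of the 9 that met the minimum in both groups fell and 0 rose. Bmper, an extracellular BMP-binding protein, went from 29.6, 27.0 and 31.9 CPM in GFP to 9.51, 8.73 and 9.26 CPM (3.22-fold lower, edgeR adjusted p = 9.51e-05). Crim1, a transmembrane protein with BMP-binding repeats, fell 2.50-fold (adjusted p = 0.000447) and the follistatin-like Fstl1 2.06-fold (adjusted p = 0.00613). Bmp1, a metalloprotease that cuts the antagonist chordin and procollagens and is no BMP ligand, fell 1.56-fold (adjusted p = 0.00287). Twsg1, which binds BMPs together with chordin, fell 1.19-fold (adjusted p = 0.0347), a call lost without N1, N3, G1 or G2.

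Of the classical antagonists, Nog had 69 reads against 49, with no test, and the others did not pass: Chrd stood at a log2 fold change of 0.10 (SE 0.14), Fst at −0.40 (SE 0.23) and Fstl3 at 0.05 (SE 0.12). Fst passed without N2 (edgeR adjusted p = 0.021). Some low-count genes lay the other way. Chrdl1, a chordin-like BMP antagonist, had 25, 12 and 25 reads in HA-NUR77 and 2, 1 and 0 in GFP, a depth-scaled ratio of 17.1 (exact binomial 95% interval 5.60 to 85.3, counting error only). Tll1, a protease related to Bmp1, had 9, 17 and 10 against 2, 1 and 1, a ratio of 7.46 (2.67 to 28.9). Neither passed the filter on low counts, so both are given with no test.

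Targets other than the ID genes changed in both directions. Atoh8, a transcription factor gene induced by BMP signals, went from 5.46, 4.12 and 5.21 CPM in GFP to 1.14, 1.14 and 1.72 CPM (3.77-fold lower, edgeR adjusted p = 0.00165). Hey1, a repressor gene driven by Notch as well as BMP signals, went from between 3.79 and 7.14 to between 10.3 and 16.1 CPM (2.67-fold higher, adjusted p = 0.00882). Both kept their calls in all fits without 1 library. Msx1 (log2 fold change −0.37, adjusted p = 0.261) did not pass, Dlx2 had 41 reads against 47, with no test, and Dlx3 (0.76, adjusted p = 0.0876) passed with the replicate block (0.000321) or without N3 (0.0376). Id4 and Msx2 had 11 and 24 reads in all, and Dlx5 none.

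The partners that ID proteins bind were also measured. Of the 6 genes of E proteins and myogenic factors that met the minimum in both groups, 2 fell, 0 rose and 4 did not pass (median log2 fold change −0.26), and with the replicate block 4 fell and 1 rose. Over all genes that met it in both groups, 13.0% fell and 12.3% rose. With the block 24.6% of all genes tested fell and 23.5% rose. Tcf4, an E protein, went from 406 ± 45.1 to 212 ± 27.7 CPM (SD, n = 3; 1.91-fold lower, edgeR adjusted p = 0.00232). Tcf3, the E protein of the E2A gene, fell 1.27-fold (adjusted p = 0.0432), a call lost without N1, N3, G1 or G2. Tcf12, another E protein, stood at −0.28 (adjusted p = 0.0602, 0.00119 with the replicate block and 0.0227 without G3). The myogenic factor Myf6, with 23 reads against 70, met the minimum through GFP alone and is given with no test. Myod1 (log2 fold change 0.37, adjusted p = 0.0754) was higher with the replicate block (0.00582) or without G3 (0.00816), Myf5 (−0.23, adjusted p = 0.125) was lower with the block (0.0477), and Myog was level at 428 ± 63.7 and 428 ± 49.5 CPM.

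Osteoblast genes, which BMP2 is known to raise in this line, were mostly near the floor. Of 7 listed, 2 met the minimum in both groups and 1 of these rose, too few to describe the list. Among all genes that met it in both groups, 12.3% rose and 13.0% fell. Spp1, osteopontin, which is also made outside bone, stood at 982, 724 and 706 CPM in HA-NUR77 and 519, 483 and 362 CPM in GFP (1.77-fold higher, edgeR adjusted p = 0.0153) and made up almost all of the summed level of the list, which ran from 740 to 1016 and from 398 to 565 CPM. Runx2, the osteoblast master regulator, stood at 33.0 ± 1.96 against 40.6 ± 5.77 CPM (edgeR adjusted p = 0.0888, 0.00632 with the replicate block and 0.022 without G3). Sp7 had 7 reads against 11, Alpl 6 against 12, Bglap 3 against 0, and Ibsp none. Bglap2 had 73 against 19 and met the minimum in neither group alone.

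The genes next to the BMP pathway genes gave mixed values. The nearest tested protein-coding genes to Bmp4 were Ddhd1, 725377 bases away (log2 fold change −0.46, edgeR adjusted p = 0.0106), and Cdkn3, 369872 bases away, which met the minimum through GFP alone and is given no test. Beside Id3, Rpl11 stood at 0.29 (adjusted p = 0.0292, a call lost without N1, N2, G1, G2 or G3) and E2f2 at 0.25 (adjusted p = 0.317, 0.0318 with the replicate block and 0.0327 without G2). Beside Id1, H13 stood at −0.02 and Bcl2l1 at −0.13 (adjusted p = 0.886 and 0.277). Beside Grem1, Fmn1 fell by 0.64 on the log2 scale (adjusted p = 0.00841) and Arhgap11a stood at 0.12 (adjusted p = 0.791, 0.0489 without G2).

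Beside Smad6, Smad3 stood at −0.28 (edgeR adjusted p = 0.0504, 0.00279 with the replicate block and 0.0331 without N2) and Lctl at 1.61 (adjusted p = 0.0541, 0.000348 with the block and 0.00695 without G3). Beside Smad7, Dym stood at −0.12 (adjusted p = 0.23) and Ctif fell by 0.26 (adjusted p = 0.0218, lost without N1, N3 or G2). Beside Id2, Kidins220 stood at 0.03 (adjusted p = 0.885), and the interferon-induced Rsad2, 1345606 bases away, had 2.69, 4.76 and 0.933 CPM in HA-NUR77 and 0.237, 0.549 and 0.474 CPM in GFP. It met the minimum through HA-NUR77 alone and is given with no test.

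Over the 6 libraries, the log2 levels most like those of Bmp4 among 10065 protein-coding genes reaching a group mean of 5 CPM were those of Hoxc13 (Pearson r = 1.00), Pacsin1 (0.998) and Fry (0.998). For Id1 they were Banp (0.996), Dnajc1 (0.996) and Lox (0.995), and for Grem1 Lrrk2 (0.992), Ccng1 (0.992) and Fam177a (0.991). These 6 points share their 2 groups, so any gene that separates the groups correlates with Bmp4, and the values are a description. Hoxc13, a homeobox gene, stood at 11.1 ± 0.0595 CPM in HA-NUR77 and 21.7 ± 0.731 CPM in GFP (SD, n = 3), a smaller fall than that of Bmp4.

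**Figure D3:**
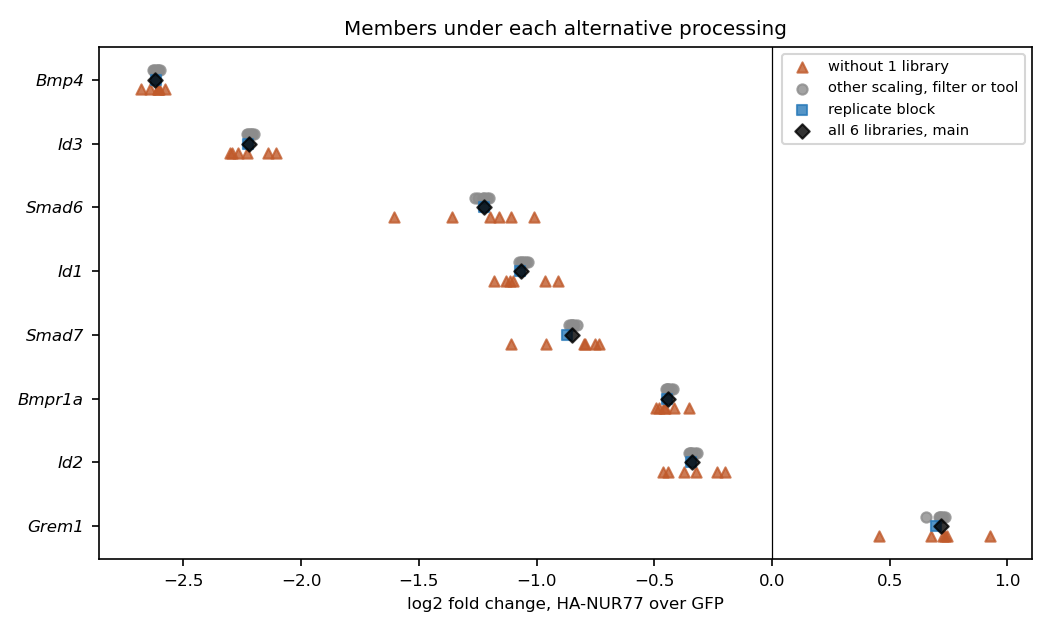
Log2 fold changes of the 8 genes with reads (x axis, HA-NUR77 over GFP) with all libraries, with each library left out, with the replicate block, and with other scaling, filters or tools. No gene crosses 0, and Smad6, with −1.60 to −1.01, and Grem1, with 0.45 to 0.92, move the most when 1 library is left out.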

How the data were processed

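The 6 RNA-seq libraries were made with a stranded poly(A) kit. Each deposited table holds the authors' raw counts for Ensembl genes. TopHat2 2.1, HTSeq, DESeq2 and the build mm10 are named in the submitters' processing notes. The annotation, the strand setting and the role of DESeq2 are not given in the sources used here. Symbols, coordinates and exon lengths came from GENCODE M21 (GRCm38), with 22888 of 23154 IDs matched. Reads shared with near-identical copies can be lost in such counting.

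Counts were fitted with edgeR 4.0.16 (R 4.3.3), a quasi-likelihood test on group alone with TMM factors, after filterByExpr (minimum count 10). P-values were adjusted by Benjamini-Hochberg over all 12509 genes kept, with a threshold of 0.05. CPM used TMM-scaled totals, and RPKM divided CPM by kilobases of exon. Alternatives were other scalings and filters, DESeq2 1.42.0, limma 3.58.1 (voom), leaving out each library, and the replicate number as a block. The labels do not say that a number marks a shared day. Deviations from group means correlated across genes at 0.25, 0.55 and 0.47 for same-numbered libraries and at −0.44 to −0.05 for others, so the block is given beside calls of named genes that it changes. No 2 libraries of a group agreed within sampling noise (smallest chi-square per degree of freedom 11.4). The fit was tested on simulated data.

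The members and lists were chosen with earlier results of these data known. Named were the 10 genes, up to 4 genes past the threshold with the smallest adjusted p per pathway list (or its most abundant gene), the most abundant marker per cell type, neighbours of 7 of the genes, and the 3 genes most like Bmp4, Id1 and Grem1. Other names, such as Acvr1, Twsg1, Chrdl1, Tll1 and genes whose call the block changes, were chosen after their values were seen. No protein sequences were used here.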

Additional observations from a re-analysis of the deposited data

How the results depend on the processing

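All 8 genes with reads kept the sign of their change in all 13 alternatives. Id1 and Id3 also kept their calls in all of them, and Id2 stayed not past the threshold in all. For the 7 genes other than Bmp4, 1 was higher with upper-quartile factors, DESeq2, no filter on low counts or the replicate block, which was Grem1 each time (edgeR adjusted p = 0.0469, 0.034 and 0.00958 for the edgeR fits, DESeq2 adjusted p = 0.027). Without 1 library 0 to 1 were higher and 2 to 5 lower. In the wider pathway without Bmp4, the 36 genes that met the minimum in both groups gave 2 higher and 18 lower with every library. Without 1 library, 2 to 4 of these were higher and 10 to 18 lower. Counts over all listed genes that passed the filter of each fit also include genes such as Gdf6 and Bmpr1b. Those 2 met the minimum through GFP alone, so these wider counts are a description. They gave 2 higher and 20 lower with every library and the filter as set. Genes higher numbered 4 with upper-quartile factors, 5 with no filter and 6 with the replicate block. Without 1 library, 3 to 5 of all listed genes were higher and 12 to 21 lower. Chrdl1 and Tll1, with 62 and 36 reads in HA-NUR77 against 3 and 4 in GFP, passed the filter in 4 of these 6 fits. They entered through HA-NUR77 alone and add to the genes higher there, so those counts are no test of them. Over all genes the replicate block gave 2942 higher and 3071 lower, and fits without 1 library gave 642 to 1489 higher and 850 to 1572 lower. Fewer libraries enter the fits without 1 library, and causes of these differences were not tested. Of the 8 genes with reads, Smad6 had the fewest, with 12 to 65 per library, and Bmp2 and Bmp7 had 0. Smad7, with 74 to 214 reads per library, lost its call in as many fits without 1 library as Smad6.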
